A study of Mus musculus with 24 samples.

Results

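Cd63, Cd9, Cd81, Cd82, Cd151, Lamp1, Tsg101, Pdcd6ip, Sdcbp and Rab27a encode tetraspanins and proteins that form or release exosomes, the small vesicles that leave a cell when a multivesicular endosome fuses with its surface. They were taken by symbol, and all 10 were found among the 20555 genes measured by RNA sequencing in brain endothelial cells and in microglia sorted from mouse brain slices. For 2 days the slices received phosphate-buffered saline (PBS) alone or 5 µg each of exosomes stained by the green membrane dye PKH67. Exosomes came from unmodified donor cells (called WT) or from donor cells of either of 2 knockouts (KO1 and KO2), and the series title names CEMIP, a hyaluronan-binding protein, in tumour exosomes. The knockouts were thus in the exosome donors and not in the cells measured here, so the targeted gene cannot be checked in these libraries. All groups shared slice culture, enzymatic digestion, myelin removal and sorting. The labels also call every sample exosome-positive, PBS samples included, so the dye gate of the PBS group is unclear. The labels state neither the strain and age of the mice nor the donor cell line.

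Endothelial cells, gated as CD45- CD31+, gave 10 libraries: 3 of PBS, 2 of WT (A, B), 3 of KO1 and 2 of KO2 (B, C), each named by a letter from A to C. Microglia, gated as CD45+ with low CD11b and low CD49d, gave 11: 2 of PBS (A, B) and 3 of every exosome group. The 3 libraries that would complete these sets, 2 endothelial and 1 microglial, were not analysed here. Values of a group are listed in the order of its letters, so that the 2 endothelial WT values are those of A and B and the 2 KO2 values those of B and C. The labels do not say whether a letter stands for an animal, a culture or a preparation, so p-values measure the spread between these libraries, which may be technical. Values below are normalised counts recovered from the deposited log2 values, which summed to 25.7 to 28.0 M in the endothelial libraries and to 27.0 to 29.4 M in those of microglia. In endothelial cells Pecam1, which encodes CD31, lay between 42620 and 56200 counts, against 0 to 284 in microglia. Ptprc, which encodes CD45, lay between 1527 and 3976 in microglia and was listed at 0 in 8 of 10 endothelial libraries. Of the microglial markers, Csf1r (699 to 2043) was present in all 11 microglia libraries, whereas P2ry12 was listed at 0 in 10 of 11 and Cx3cr1 reached 155 at most.

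Tetraspanins cross the membrane several times and gather partner proteins into patches; CD63, CD9 and CD81 are the usual protein markers of exosomes. Tsg101, a subunit of the ESCRT-I complex, and Alix, the product of Pdcd6ip, bind each other and help to pinch vesicles into the endosome, while syntenin, the product of Sdcbp, links Alix to syndecans and to CD63. RAB27A is a small GTPase that docks multivesicular endosomes at the plasma membrane, and LAMP1 is an abundant glycoprotein of the lysosomal membrane, the other destination of these endosomes. The transcripts measured here are those of the recipient cells, and the libraries do not measure vesicles or protein.

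Of the 10 genes, 9 had a promoter in the RefSeq table for GRCm38.p6 (250 bases before to 50 bases after a start, 14 windows in all). The promoters of Lamp1, Cd9 and Cd81 are shown because these genes lay on 1 side of PBS in all 7 exosome libraries of endothelial cells when each was set against the PBS library of its own letter. Each is read in the direction of transcription. Capitals mark 6-base motifs searched on both strands: CACGTG, the core of the CLEAR element of lysosomal genes, GGGCGG, the GC box, and TATAAA, the TATA box.
Lamp1: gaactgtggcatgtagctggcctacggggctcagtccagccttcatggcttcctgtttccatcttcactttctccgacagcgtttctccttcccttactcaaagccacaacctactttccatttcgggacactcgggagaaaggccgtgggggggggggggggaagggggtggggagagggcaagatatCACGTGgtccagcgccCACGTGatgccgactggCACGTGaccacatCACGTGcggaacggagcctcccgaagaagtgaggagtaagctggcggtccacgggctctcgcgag
Cd9: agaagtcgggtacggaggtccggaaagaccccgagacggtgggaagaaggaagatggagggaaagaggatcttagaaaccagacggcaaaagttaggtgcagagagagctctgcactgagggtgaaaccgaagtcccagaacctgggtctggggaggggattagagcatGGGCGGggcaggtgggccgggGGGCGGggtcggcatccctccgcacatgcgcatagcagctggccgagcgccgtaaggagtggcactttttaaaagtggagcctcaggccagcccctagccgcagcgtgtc
Cd81: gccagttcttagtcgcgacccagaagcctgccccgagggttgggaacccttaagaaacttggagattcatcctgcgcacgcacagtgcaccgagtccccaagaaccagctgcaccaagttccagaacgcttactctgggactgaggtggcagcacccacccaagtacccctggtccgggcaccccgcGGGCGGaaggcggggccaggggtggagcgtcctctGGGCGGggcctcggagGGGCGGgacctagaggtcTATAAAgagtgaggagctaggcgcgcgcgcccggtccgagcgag
The Lamp1 window (chr8:13158911-13159210, plus strand) held CACGTG 4 times and none of the other motifs, and 7.15% of all 32851 promoters held at least 1 copy. Cd9 (chr6:125494711-125495010, minus strand) held 2 GC boxes and Cd81 (chr7:143052500-143052799, plus strand) held 3 and a TATA box. GGGCGG occurred in 35.7% of all promoters and TATAAA in 13.6%. Among the other members CACGTG occurred in Pdcd6ip and in 1 of the 2 Rab27a windows. Of the 14 windows 7 held a GC box, and the only overlapping pair of matches was 2 GC boxes in Tsg101. The fourth motif searched, CCAAT, occurred in 37.4% of all promoters. These matches describe letters and are not binding sites.

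In endothelial cells the most abundant of these transcripts per kilobase was Cd81, with a median over 10 libraries of 13482 counts per kilobase of its principal transcript. Cd82 (10832), Lamp1 (9716), Sdcbp (6305), Cd63 (5427), Cd9 (3610), Pdcd6ip (2356) and Cd151 (1927) followed. The library ranges of each neighbouring pair in that order overlapped, so the order is not sharp. A gap without overlap separated Cd151 from Tsg101 (292) and Rab27a (18.5). In microglia Cd63 led with 61517 counts per kilobase, above Lamp1 (33592) and Cd9 (17661), and the ranges of these 3 genes did not overlap each other. Below them lay Sdcbp (6389), Cd81 (6305), Pdcd6ip (2180), Cd82 (1103), Tsg101 (367), Cd151 (261) and Rab27a (27.7). Sdcbp overlapped Cd81, Cd81 stood clear of Pdcd6ip, and each neighbouring pair from Pdcd6ip downwards overlapped.

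The levels of both cell types are given per 1 M recovered counts, side by side and without a test, because their tables were normalised separately. Cd63 had a median of 2358 per 1 M in microglia and 227 in endothelial cells, a ratio of 10.4. Cd9 was 4.66 times and Lamp1 3.42 times as high in microglia. Cd82, by contrast, had a median of 742 per 1 M in endothelial cells and 73.8 in microglia, a ratio of 10.05. Cd151, which binds laminin-receptor integrins, was 7.85 times and Cd81 2.19 times as high in endothelial cells. No library of one cell type overlapped one of the other for these 6 genes, 3 in each direction; of the 9768 genes tested in both cell types, 7.1% lay wholly higher in endothelial cells and 5.08% wholly higher in microglia. Tsg101, Pdcd6ip, Sdcbp and Rab27a overlapped, with medians of 21.7 and 24.3, 538 and 476, 488.5 and 482, and 2.19 and 3.12 per 1 M in endothelial cells and microglia.

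**Figure D1:**
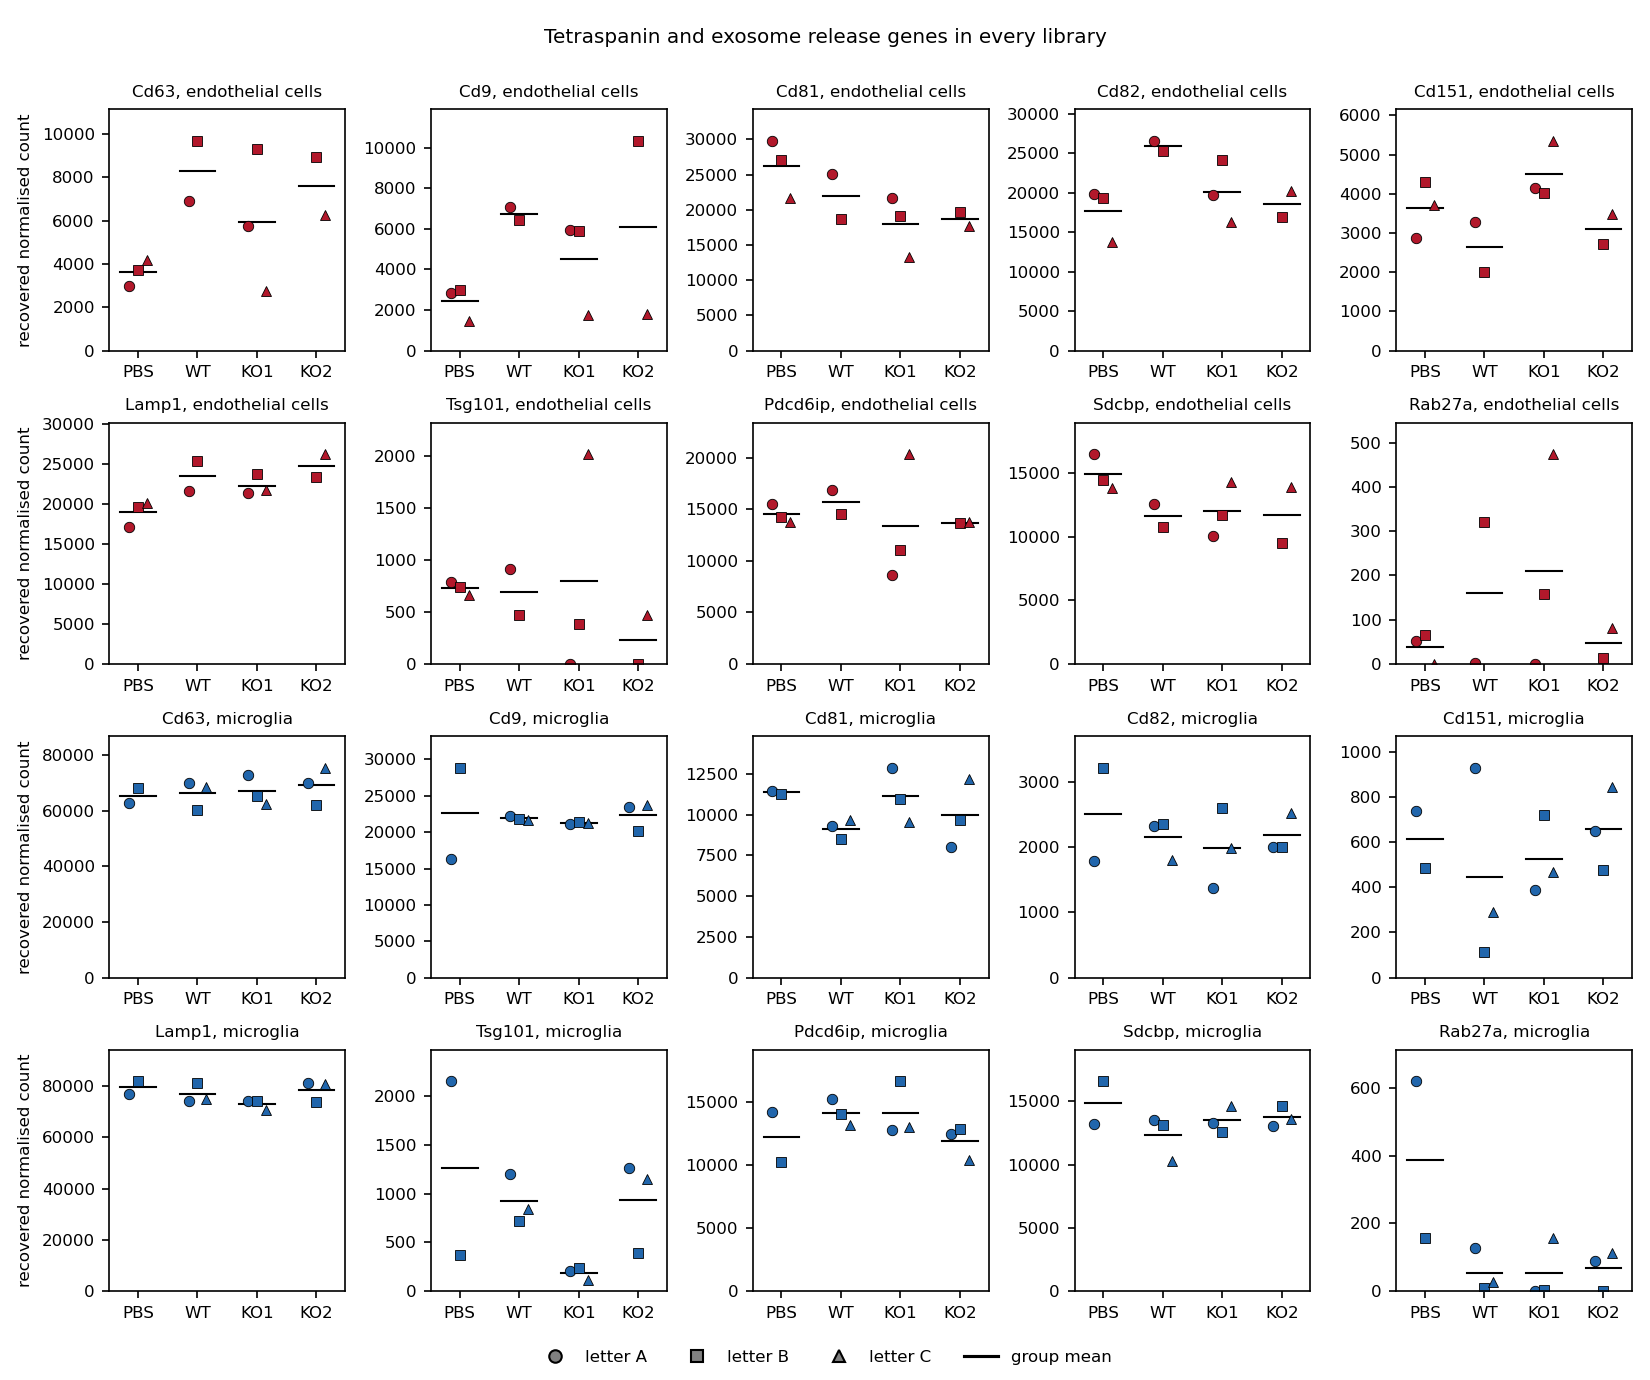
Recovered normalised counts of the 10 genes in every library of endothelial cells (upper 2 rows, red) and microglia (lower 2 rows, blue), by group, with symbols for the letter and a line at the group mean; each vertical axis starts at 0. Endothelial Cd63 and Cd9 spread widely among the exosome libraries, with KO1 C low for both and KO2 C low for Cd9, while endothelial Lamp1 lay higher in all 7 exosome libraries than in the 3 PBS libraries.

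No gene of either cell type passed an adjusted p of 0.05 (limma, Benjamini-Hochberg adjustment over 11012 genes in endothelial cells and 10557 in microglia) in WT minus PBS, in the knockout mean minus WT, in the mean of all exosome groups minus PBS, in KO1 minus KO2 or in the F test over the 4 groups. The share of genes past it was 0% in each. The 10 genes were tested in both cell types. These fits have no term for the letters. With such a term, 16 genes passed in microglia in WT minus PBS. In all exosome groups minus PBS 26 passed, and in the F test 7. None of the 10 genes passed with it, and in endothelial cells no gene did. What follows therefore describes values, and a p printed as unadjusted did not survive adjustment over all genes. Simulated differences in WT minus PBS of endothelial cells were recovered for 74% of genes at 0.5 on the deposited log2 scale and 94% at 1. In microglia 6% and 82% were recovered. These shares cannot be compared between the cell types, because their deposited scales compress differences differently. A difference of 0.502 was 2.6 times for endothelial Cd63 in WT B against PBS B. For microglial Cd9 in KO2 A against PBS A, 0.527 was 1.44 times. In bulk libraries fewer cells of a type and less RNA per cell cannot be told apart.

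Cd63 encodes a tetraspanin of late endosomes and lysosomes. In endothelial cells its counts were 2999.5, 3724 and 4202 with PBS, 6912 and 9695 with WT, 5758, 9304 and 2740.2 with KO1, and 8930.1 and 6279.7 with KO2. All exosome libraries lay above the PBS range except KO1 C, which lay below it. Means were 3642 ± 605 (SD, n = 3) with PBS, 8303 ± 1968 (n = 2) with WT, 5934 ± 3285 (n = 3) with KO1 and 7605 ± 1874 (n = 2) with KO2. On the deposited log2 scale, which compresses differences, WT minus PBS was 0.41 (95% interval 0.07 to 0.75, limma, unadjusted p = 0.0222, adjusted p = 0.429). The mean of all exosome groups minus PBS was 0.32 (0.07 to 0.58, unadjusted p = 0.0192, limma adjusted p = 0.55), and the knockout mean minus WT was -0.13 (-0.45 to 0.18).

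Cd9, a surface tetraspanin of many epithelial and haematopoietic cells, had endothelial counts of 2834, 2989.6 and 1438 with PBS. With exosomes it had 7059.5 and 6412 with WT, 5940.5, 5877 and 1734 with KO1, and 10354 and 1799 with KO2. The 5 exosome libraries lettered A or B lay above every PBS library, and both C libraries lay within the PBS range. Set against the PBS library of the same letter, all 7 exosome libraries were higher, by 1.21 to 3.46 times. Of all genes tested 3.25% were higher in all 7 such pairs, which share their 3 PBS libraries. WT minus PBS was 0.46 on the deposited log2 scale (-0.03 to 0.95, limma adjusted p = 0.511), and the mean of all exosome groups minus PBS was 0.33 (-0.04 to 0.71, adjusted p = 0.71), or 0.20 without KO2 B. KO2 was the most spread group, with a mean of 6077 ± 6049 (n = 2).

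Markers of choroid plexus, the epithelium that makes cerebrospinal fluid, were high in the 5 endothelial libraries with the most Cd9. Cd63 followed these markers less closely, with 6279.7 counts in KO2 C and 5758 in KO1 A. The summed counts of 14 such markers were 962 to 7385 in PBS, 202837 to 361473 in the 5 exosome libraries lettered A or B, and 6727 (KO1) and 23000.0 (KO2) in the 2 lettered C. Between 1 and 3 of the 14 exceeded 100 counts in PBS, 10 to 12 did in the A and B exosome libraries and 3 in the C libraries; 4 to 9, 0 to 3 and 10 of them were listed at 0. Ttr alone ranged from 42.1 to 276884 counts. Fibroblast and meningeal markers (12 genes) summed to 626 to 1503 in PBS, 1859 to 7797 in the A and B exosome libraries and 166 to 1782 in the C libraries. Their part in the Cd63 and Cd9 values was not tested. Within letter C the choroid plexus sums were 962 with PBS, 6727 with KO1 and 23000.0 with KO2. There Cd9 was 1.21 and 1.25 times its PBS value in KO1 and KO2, and Cd63 0.652 and 1.49 times. Without WT B, KO1 B and KO2 B, a setting added after the data were seen, the mean of all exosome groups minus PBS was 0.21 for Cd63 and 0.18 for Cd9 on the deposited log2 scale. Without the C libraries it was 0.44 and 0.45.

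Cd81, a tetraspanin that pairs with immunoglobulin-domain proteins such as EWI-2, lay on the other side of PBS. Its endothelial counts were 29837, 27064 and 21621 with PBS, 25109.5 and 18716 with WT, 21672, 19089 and 13336 with KO1, and 19715 and 17740.4 with KO2. WT A and KO1 A lay within the PBS range, and the other 5 exosome libraries were below all PBS libraries. Against the PBS library of its letter all 7 exosome libraries were lower, at 0.617 to 0.842 times, and 3.9% of all genes tested were lower in all 7. Means were 26174 ± 4179.8 (n = 3) with PBS, 21913 ± 4521 (n = 2) with WT, 18032 ± 4268 (n = 3) with KO1 and 18728 ± 1396 (n = 2) with KO2. The mean of all exosome groups minus PBS was -0.26 on the deposited log2 scale (-0.48 to -0.03, limma, unadjusted p = 0.0308, adjusted p = 0.611). In the C libraries, with choroid plexus sums of 6727 and 23000.0, Cd81 was 0.617 and 0.821 times its PBS value. In the authors' deposited table for endothelial cells, Cd81 alone of the 10 genes was listed, with p = 0.000126 and an adjusted p of 0.00687 in their likelihood ratio test. The table holds 362 genes, 2.56% of those that vary, and its fold change is left out because its contrast is not stated. In the F test over the 4 groups, endothelial Cd81 had an unadjusted p of 0.0928 (limma, adjusted p = 0.648).

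The make-up of the 5 tetraspanin transcripts also differed between the libraries. Cd63 and Cd9 together made up 9.99%, 11.7% and 12.6% of the 5 tetraspanins' counts with PBS. They made up 20.3% and 25.95% with WT, 20.5%, 24.3% and 11.3% with KO1, and 32.9% and 16.3% with KO2. Cd81 made up 47.2 to 51.1% with PBS, against 30.2 to 37.9% in the 7 exosome libraries, and these ranges did not overlap. The Cd81 counts did overlap, with 25109.5 in WT A and 21672 in KO1 A inside the PBS range of 21621 to 29837. A share also depends on the counts of the other tetraspanins. How often shares within other sets of genes separate in this way was not counted. The combined count of the 5 genes was 44655 to 58421 with PBS and 39462 to 68941 with exosomes. In microglia Cd63 and Cd9 together made up 84.9 to 89.8% in all 11 libraries. The microglial Cd81 share ran from 7.68% in KO2 A to 12.3% in PBS A. Shares of 1 library sum to 100%, so they do not vary independently. In KO1 C the Cd81 share was 33.8% while Cd63 and Cd9 together lay within the PBS range, and Cd82 and Cd151 took 41.3% and 13.6%.

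**Figure D2:**
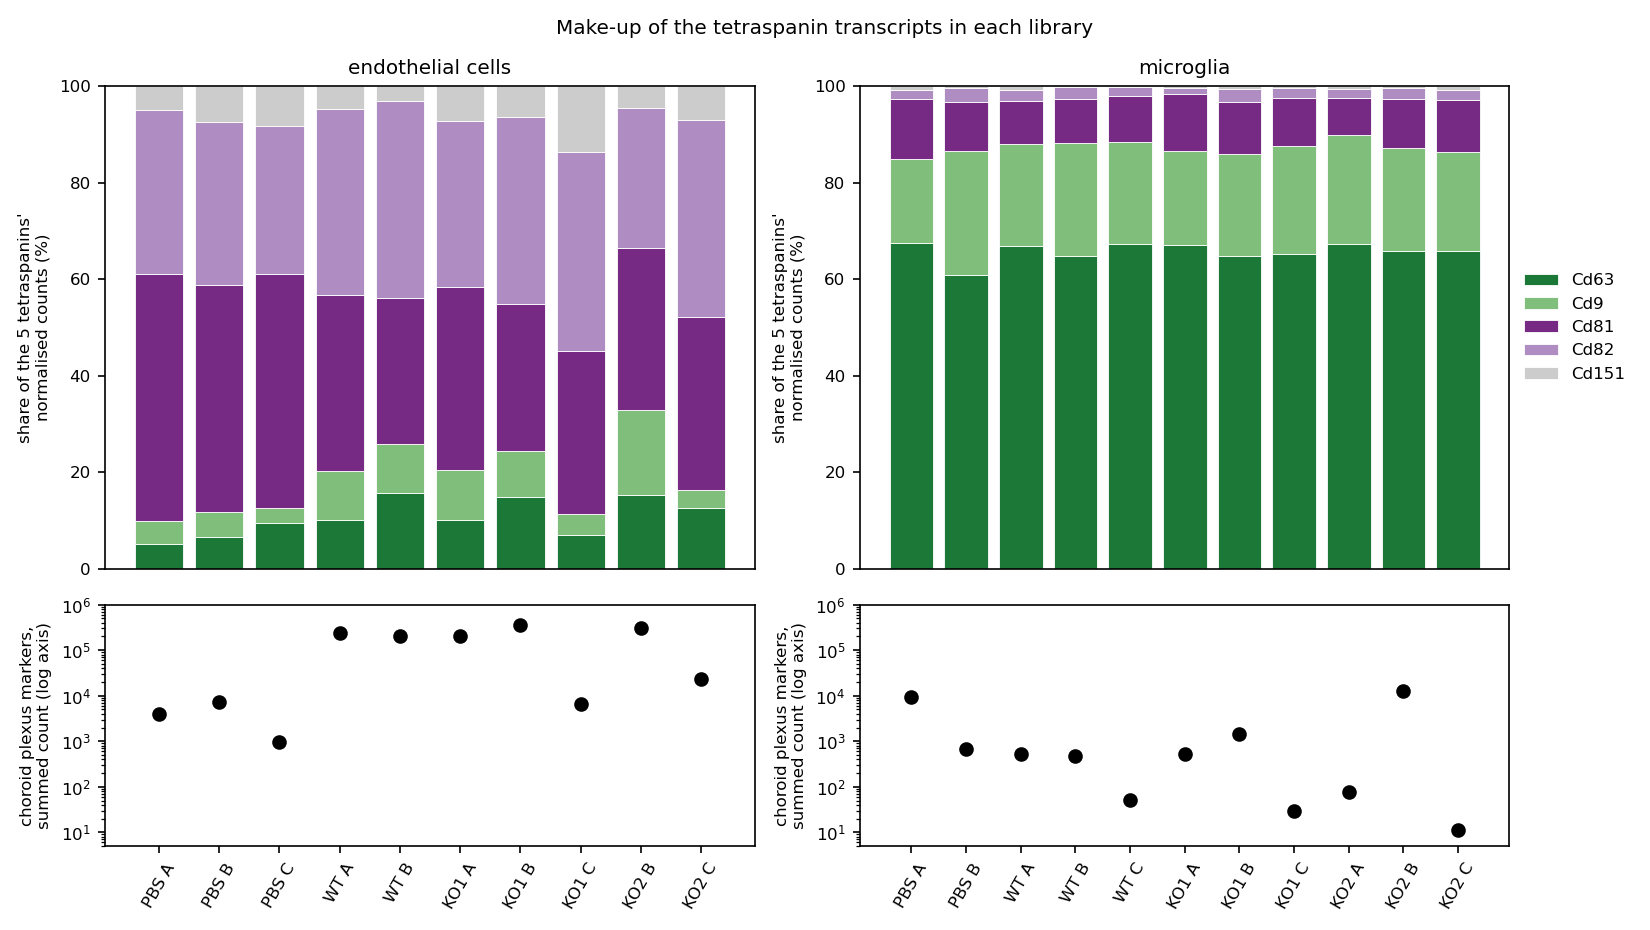
Upper panels: share (%) of the summed normalised counts of Cd63, Cd9, Cd81, Cd82 and Cd151 taken by each gene, per library. Lower panels: summed count of 14 choroid plexus markers in the same library, on a log axis; in endothelial cells the sum was 202837 or more in the 5 A and B exosome libraries, where Cd63 and Cd9 together took 20.3 to 32.9%.

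Cd82, a tetraspanin known for restraining cell motility, had endothelial counts of 19874, 19293 and 13689.5 with PBS and 26575 and 25252 with WT. It had 19640.3, 24122 and 16298 with KO1 and 16898 and 20223 with KO2. Both WT libraries lay above all PBS and all knockout libraries, and the knockouts overlapped PBS. WT minus PBS was 0.34 on the deposited log2 scale (0.07 to 0.60, limma, unadjusted p = 0.0185, adjusted p = 0.415), and the knockout mean minus WT was -0.26 (-0.51 to -0.02, limma, unadjusted p = 0.0397, adjusted p = 0.539). These differences share the 2 WT libraries. Within letters the knockout to WT ratios were 0.739 for KO1 A, 0.955 for KO1 B and 0.669 for KO2 B. There was no WT C library to set against the C knockouts.

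Cd151 had endothelial counts of 2876, 4309 and 3705 with PBS, 3285 and 1990.5 with WT, 4143, 4017 and 5355 with KO1, and 2729 and 3481 with KO2. The 3 KO1 libraries lay above both KO2 libraries, as did 7.86% of all genes tested. KO1 minus KO2 was 0.16 on the deposited log2 scale (-0.04 to 0.35, limma adjusted p = 0.842). Within letters Cd151 was 1.47 times as high in KO1 B as in KO2 B and 1.54 times in KO1 C as in KO2 C.

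Lamp1 had endothelial counts of 17088, 19607 and 20169.7 with PBS. With exosomes it had 21562 and 25392 with WT, 21357, 23752 and 21752 with KO1, and 23338 and 26233 with KO2. All 7 exosome libraries lay above all 3 PBS libraries, and Lamp1 alone of the 10 genes was so placed, against 1.24% of all genes tested. None of the 10 lay wholly lower, against 1.51%. Means were 18955 ± 1641 (n = 3) with PBS, 23477 ± 2708 (n = 2) with WT, 22287 ± 1284 (n = 3) with KO1 and 24785 ± 2048 (n = 2) with KO2. The mean of all exosome groups minus PBS was 0.18 on the deposited log2 scale (0.04 to 0.32, limma, unadjusted p = 0.0167, adjusted p = 0.539), and WT minus PBS was 0.18 (-0.01 to 0.37, adjusted p = 0.496), or 0.11 without WT B. WT and knockout libraries interleaved, with a knockout mean minus WT of 0.003 (-0.17 to 0.17). Against the PBS library of its letter Lamp1 was 1.08 to 1.30 times as high. In the 2 C libraries, KO1 and KO2, it stood at 1.08 and 1.30 times. Their choroid plexus sums were 6727 and 23000.0, against 962 in PBS C. Leaving out the C libraries gave 0.195 for the mean of all exosome groups minus PBS, and leaving out WT B, KO1 B and KO2 B gave 0.17.

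In WT minus PBS of endothelial cells, Cd63, Cd9, Cd82 and Lamp1 were wholly higher with WT, 4 of 10 genes against 15.3% of all genes tested. Sdcbp was wholly lower, 1 of 10 against 19.5%. At an unadjusted p under 0.05, 2 of 10 were higher (Cd63 and Cd82), against 3.66% of all genes, and 0 were lower, against 6.46%. In the mean of all exosome groups minus PBS, 2 were higher (Cd63 and Lamp1), against 2.72%, and 2 were lower (Cd81 and Sdcbp), against 4.87%. In the knockout mean minus WT, Cd82 was the 1 gene at that level, lower, against 3.9% of all genes, and also the 1 gene wholly lower, against 4.67%. None was higher at that level or wholly higher, against 4.93% and 4.47%. In KO1 minus KO2 none of the 10 reached that level, against 2.95% of all genes higher and 3.43% lower, and none lay wholly lower in KO1, against 8.81%. With 10 genes such counts are small, and all of these contrasts share libraries. Both WT libraries also had high choroid plexus sums, 234769 and 205361, against 962 to 7385 with PBS. The part of those transcripts in the WT differences was not tested.

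**Figure D3:**
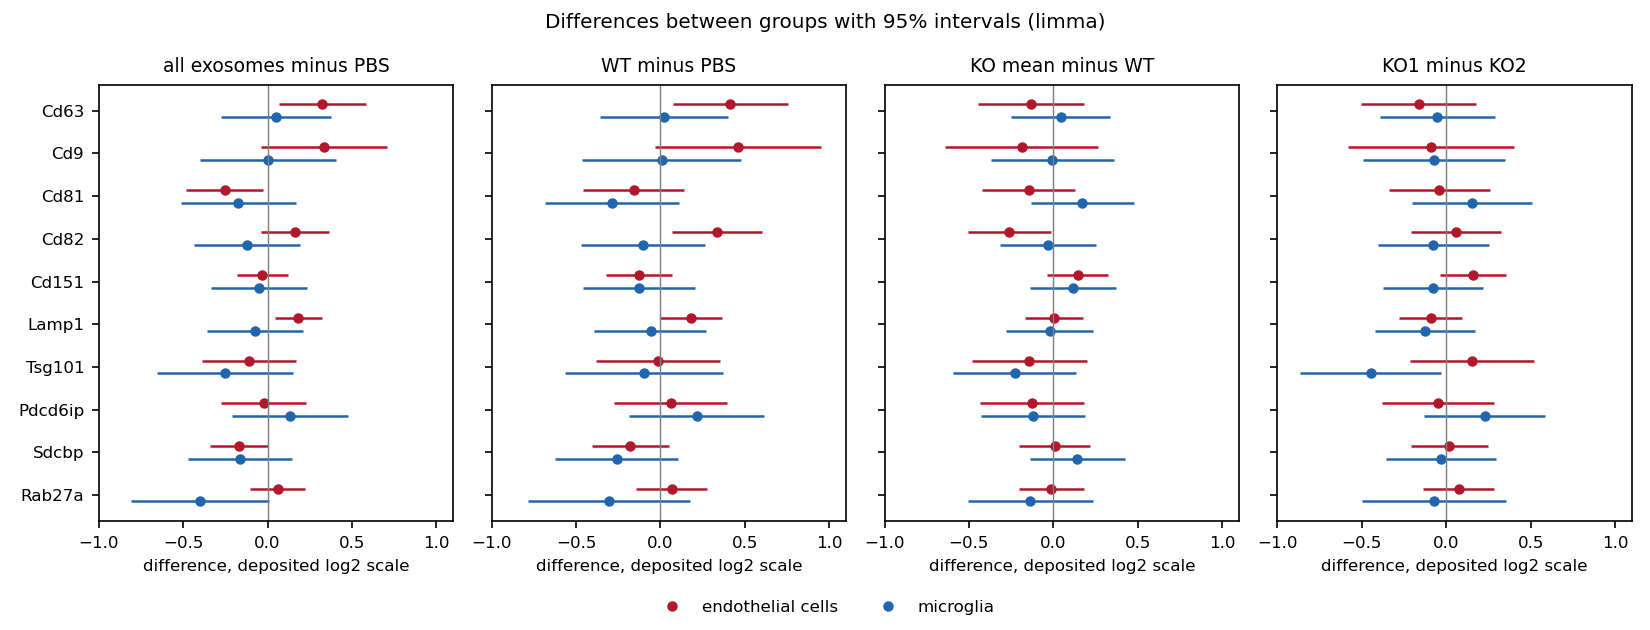
Differences between groups on the deposited log2 scale for the 10 genes, as points with 95% intervals (limma), in endothelial cells (red) and microglia (blue). Most intervals include 0, and the endothelial interval of Lamp1 for all exosomes minus PBS runs from 0.04 to 0.32.

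Sdcbp had endothelial counts of 16465, 14443 and 13786 with PBS, 12517 and 10755 with WT, 10063, 11664 and 14255 with KO1, and 9509 and 13919 with KO2. The exosome libraries lettered A or B lay below all PBS libraries, and the C libraries did not. The mean of all exosome groups minus PBS was -0.17 on the deposited log2 scale (-0.34 to -0.00, limma, unadjusted p = 0.0498, adjusted p = 0.657). The exosome libraries below PBS are those with choroid plexus sums of 202837 or more, and the part of those transcripts in this value was not tested.

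Pdcd6ip had endothelial counts of 15470.1, 14272 and 13764 with PBS, 16851 and 14572 with WT, 8658, 11078 and 20341 with KO1, and 13634 and 13765 with KO2. KO1 held both the lowest and the highest library, and no contrast exceeded 0.13 on the deposited log2 scale in either direction. Tsg101 was weaker: 792, 742.0 and 663 with PBS, 912 and 475 with WT, 0, 380.4 and 2019.8 with KO1, and 0 and 468 with KO2. It was listed at 0 in KO1 A and KO2 B, so no mean is given for these groups. KO1 C stood highest for both Pdcd6ip and Tsg101, and the Pearson correlation of their deposited log2 values over the 10 libraries was 0.81, given as a description. Rab27a was close to the floor, with 50.9, 66.2 and 0 with PBS, 2.13 and 320.3 with WT, 0, 158 and 474 with KO1, and 13.9 and 81.7 with KO2. At such counts no order among the endothelial groups can be read.

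In microglia Cd63 had counts of 62655 and 68222 with PBS, 69875, 60334 and 68631 with WT, 72999, 65487 and 62491 in KO1, and 70067, 61982 and 75529 in KO2. The PBS libraries lay inside the range of the exosome libraries, and the mean of all exosome groups minus PBS was 0.05 on the deposited log2 scale (-0.28 to 0.37, limma adjusted p = 0.985). Cd9 had 16256 and 28886 with PBS, 22215, 21793 and 21687 in WT, 21162, 21391 and 21304 in KO1 and 23407, 20108 and 23769 in KO2. The PBS libraries were the lowest and the highest of all 11, and the mean of all exosome groups minus PBS was 0.004 (-0.40 to 0.41). Lamp1 had 76954 and 81935 in PBS, 74048, 81287 and 74878 in WT, 74017, 74321 and 70509.9 in KO1 and 81003, 73910.3 and 80889 in KO2. Its ranges overlapped, with a mean of all exosome groups minus PBS of -0.07 (-0.36 to 0.21, limma adjusted p = 0.975).

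Microglial Cd81 had 11468 and 11302 with PBS, 9299, 8482 and 9662 with WT, 12896, 10950.0 and 9523 in KO1 and 7995, 9665 and 12217 in KO2. Both PBS libraries lay above all 3 WT libraries and inside the knockout range, with WT minus PBS at -0.29 (-0.68 to 0.11, limma adjusted p = 0.928). Rab27a had 620.0 and 155 with PBS, 126, 10.3 and 26.2 in WT, 0, 1.85 and 156 in KO1 and 87.7, 0 and 112 in KO2. Every library with a PBS partner of its letter was lower than that partner, 6 of 6, against 8.02% of all genes tested, and none of the 10 genes was higher in all 6, against 7.47%; however, KO1 C, which has no such partner, was level with PBS B. Wholly lower in WT than in PBS were Cd81 and Rab27a, 2 of 10 genes, against 9.93% of all genes tested. The Rab27a difference for the mean of all exosome groups minus PBS was -0.40 (-0.81 to 0.01, limma, unadjusted p = 0.0556, adjusted p = 0.849), and it was -0.24 without PBS A and -0.56 without PBS B. Recovered microglia counts are approximate below a mean of 54.3, and 5 of the 11 Rab27a values lie below it.

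Of the 10 genes in microglia, Tsg101 had the largest difference between the knockouts on the deposited log2 scale. Its counts were 2153 and 369.6 with PBS, 1205, 715 and 839 with WT, 201, 237 and 108 with KO1, and 1263, 385 and 1152 with KO2. The 3 KO1 libraries lay below all other microglia libraries, and the share of all genes placed in this way was not counted. KO1 minus KO2 was -0.45 on the deposited log2 scale (-0.87 to -0.03, limma, unadjusted p = 0.0385, adjusted p = 1), and Tsg101 was the 1 gene of 10 wholly lower in KO1, as were 4.23% of all genes tested; 1.79% of all genes were lower at an unadjusted p under 0.05. Within letters KO1 stood at 0.159, 0.617 and 0.0938 times KO2 and at 0.166, 0.332 and 0.129 times WT for A, B and C. In the authors' deposited table for microglia, which lists 238 genes or 1.71% of those that vary, Tsg101 alone of the 10 was listed, with p = 0.000794 and an adjusted p of 0.0384 in their likelihood ratio test. In the F test over the 4 groups, microglial Tsg101 had an unadjusted p of 0.0699 (limma) and did not pass after adjustment. In endothelial cells the KO1 libraries ranged from 0 to 2019.8, and KO1 minus KO2 was 0.15 (-0.22 to 0.52, limma adjusted p = 0.925).

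The other microglial genes overlapped between the groups in all 4 contrasts. None of the 10 genes was wholly higher in WT minus PBS (9.21% of all genes tested), in the mean of all exosome groups minus PBS (2.02%), in the knockout mean minus WT (0.947%) or in KO1 minus KO2 (4.03%). None was wholly lower in the second (2.23%) or the third (0.909%) of these. At an unadjusted p under 0.05 none was higher or lower in WT minus PBS (2.96% and 2.27% of all genes), in the mean of all exosome groups minus PBS (3.59% and 2.12%) or in the knockout mean minus WT (1.87% and 1.4%), and none was higher in KO1 minus KO2 (1.62%). Cd82 ranged from 1378 counts in KO1 A to 3223 in PBS B, and Cd151 from 115 to 932, both of which were WT libraries. Pdcd6ip ranged from 10226 in PBS B to 16647 in KO1 B, and Sdcbp from 10324 in WT C to 16612 in PBS B. Cd82, Cd151, Pdcd6ip and Sdcbp each had a mean of all exosome groups minus PBS between -0.16 and 0.13 on the deposited log2 scale.

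**Figure D4:**
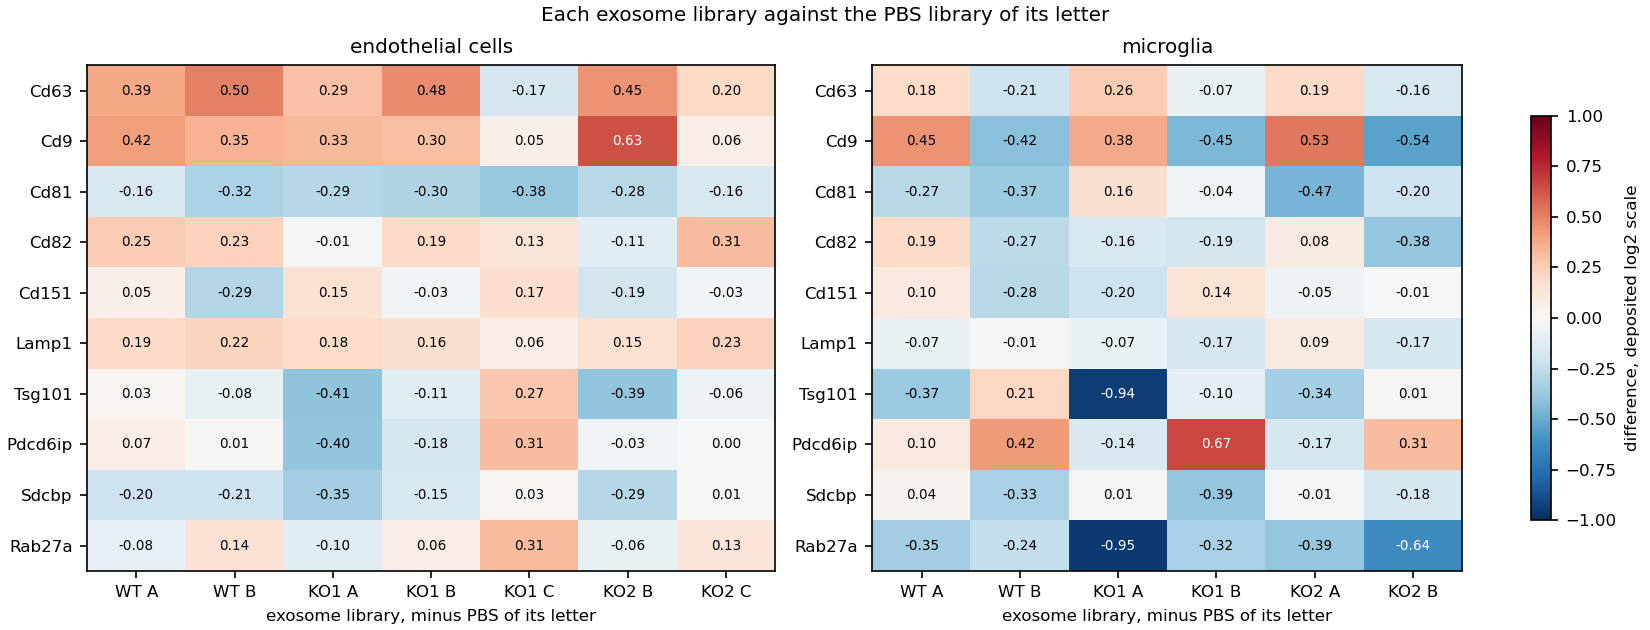
Difference of each exosome library from the PBS library of its letter, on the deposited log2 scale (red higher, blue lower), in endothelial cells (7 libraries) and microglia (6 libraries). Cd9 and Lamp1 were higher and Cd81 lower in all 7 endothelial libraries, whereas in microglia Cd63 and Cd9 were higher in the 3 A libraries and lower in the 3 B libraries.

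The difference between the cell types in the exosome response was tested as an interaction on log2(recovered count + 50) over 9768 genes, and 0 genes passed an adjusted p of 0.05; 6.13% had an unadjusted p under 0.05. For Cd63 the response in endothelial cells exceeded that in microglia by 0.88 (0.08 to 1.67, limma, unadjusted p = 0.0324, adjusted p = 0.753). For Lamp1 the excess was 0.37 (0.07 to 0.68, limma, unadjusted p = 0.0201, adjusted p = 0.695), and for Rab27a 2.65 (0.27 to 5.04, limma, unadjusted p = 0.0314, adjusted p = 0.751), the last at counts near 0. For Cd9 it was 1.05 (-0.30 to 2.40, limma adjusted p = 0.874). The choroid plexus sums differed between the endothelial groups and were at most 12966 in any microglia library, and their part in these differences was not tested.

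Wider lists held 117 further genes of the same machinery, of which 102 were tested in endothelial cells and 94 in microglia, and 0 passed an adjusted p of 0.05 in any of the 4 contrasts. In the mean of all exosome groups minus PBS of endothelial cells, 57 of 102 lay higher, 3 of them at an unadjusted p under 0.05, and 45 lower, 5 of them at that level. In microglia 42 of 94 lay higher, 1 at that level, and 52 lower, 3 at that level. Over all genes tested 45.4% and 49.6% lay higher. At that level were 2.72% higher and 4.87% lower of all genes in endothelial cells, and 3.59% and 2.12% in microglia, so the endothelial counts are near those shares. The genes named next had the smallest p of their list in the contrast given.

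Among 20 other tetraspanins, of which 16 were tested in endothelial cells, Tspan5, which escorts the protease ADAM10, had 4876 ± 208 counts with PBS, 3543 ± 2208 with WT, 2417 ± 627 with KO1 and 2510.1 ± 1035 with KO2. Its difference for all exosome groups minus PBS was -0.245 (limma adjusted p = 0.55). In microglia Cd53, a tetraspanin of leukocytes, had 41571 ± 6113 with PBS, 29446 ± 3260.2 with WT, 35484 ± 1972 with KO1 and 32713 ± 3878 with KO2, a WT minus PBS of -0.54 (limma adjusted p = 0.888). It is also in the authors' deposited table for microglia, with an adjusted p of 0.0046 in their likelihood ratio test over the groups. Among 10 partners of tetraspanins, Itga6, a laminin-receptor subunit that binds CD151, had 8079 ± 987 with PBS, 5133 ± 234 with WT, 6078 ± 1018 with KO1 and 8921 ± 1479 with KO2 in endothelial cells. WT minus PBS was -0.24 (limma adjusted p = 0.399).

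Among 10 partners of syntenin and Alix, Sdc4, the syndecan-4 gene, had 270.0 ± 187 counts with PBS in endothelial cells, 2503 ± 1115 with WT, 1593 ± 1131 with KO1 and 2052 ± 1391 with KO2. Its difference for all exosome groups minus PBS was 0.40 (limma adjusted p = 0.471). The KO1 libraries ranged from 288 to 2280 and overlapped the PBS range of 64.6 to 432. Choroid plexus sums were 962 to 7385 in PBS and 202837 to 361473 in the exosome libraries lettered A or B. Their part in this and the other endothelial values of these lists was not tested. The authors' deposited table for endothelial cells lists Sdc4 with an adjusted p of 7.22e-06 in their likelihood ratio test over the groups. Of the 13 genes of ESCRT-0, I and II, Snf8, an ESCRT-II subunit, had 924 ± 128 with PBS, 2285 ± 357 with WT, 969.8 ± 565 with KO1 and 889 ± 218 with KO2, with a WT minus PBS of 0.25 (limma adjusted p = 0.429). Of the 14 genes of ESCRT-III and Vps4, Chmp1a had 1737 ± 243 with PBS, 2871 ± 579 with WT, 2693 ± 678 with KO1 and 3079.8 ± 517 with KO2, a difference of 0.17 for all exosome groups minus PBS (limma adjusted p = 0.558).

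Among 24 Rab proteins and effectors, Rab31, a GTPase of the endosomal system, had 4460.3 ± 937 counts with PBS in microglia, 2973 ± 503 with WT, 2678 ± 861 with KO1 and 2772 ± 282 with KO2. Its difference for all exosome groups minus PBS was -0.44 (limma adjusted p = 0.783). Among 11 SNAREs and sphingomyelinases, Snap23, a plasma membrane SNARE, had 8836 ± 1491 with PBS in endothelial cells, 5386 ± 42.9 with WT, 5499 ± 1718 with KO1 and 6437 ± 243 with KO2, a difference of -0.24 for all exosome groups minus PBS (limma adjusted p = 0.495). Of 15 lysosomal membrane genes, Laptm5, found in haematopoietic cells, had 12115 ± 1446 with PBS in microglia, 7549 ± 2413 with WT, 6123 ± 1624 with KO1 and 7628 ± 2729.9 with KO2. Its difference for all exosome groups minus PBS was -0.72 (limma adjusted p = 0.835). The authors' deposited table lists Laptm5 with an adjusted p of 0.000832 in their likelihood ratio test over the groups.

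Outside these lists, the genes whose deposited log2 values followed Cd63 most closely over the 10 endothelial libraries were Col18a1 (Pearson r = 0.96), Ldhb (0.96) and Cebpb (0.96). Among those closest to Cd9 were Fastkd1 (0.965) and Pgam1 (0.95), and those closest to Cd81 were Paxip1 (0.98), Cggbp1 (0.92) and Ppp1cb (0.91). In microglia, over 11 libraries, Cmtm8 (0.93), Hcfc1r1 (0.89) and Lamtor5 (0.89) followed Cd63. Cd9 was followed by Ung (0.93), Psmb7 (0.91) and Psmb6 (0.90), and Cd81 by Eef2 (0.93), Ndufa5 (0.93) and Araf (0.92). These values are among the highest of all genes tested outside the lists and describe likeness over libraries that share letters and depth. Within the set, Cd63 and Cd9 correlated at 0.76 in endothelial cells and 0.45 in microglia, and Cd63 and Sdcbp at -0.79 and -0.115.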

How the data were processed

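RNA sequencing of sorted mouse cells was analysed from the authors' files. The submitters' processing notes name Salmon 0.10.0, DESeq2 1.18.1, Trimmomatic 0.38, FastQC 0.11.7 and the build GRCm38.p6, without roles or order. The authors deposited 1 table of variance-stabilised log2 values per cell type, whose lowest value, the floor, marks a normalised count of 0 (13.2814 in endothelial cells, 9.8893 in microglia). The authors' deposited gene lists, named for a likelihood ratio test over the groups, give each gene's p-values, a log2 fold change, the mean normalised count (a signal), and as scores the test statistic and the fold change's error. Of 20555 gene identifiers 20537 had a symbol in RefSeq.

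Normalised counts were recovered from the log2 values, by a closed inverse in endothelial cells and by a curve through the authors' means in microglia (largest held-out error 0.559%, not anchored below a mean of 54.3). Raw read depth is not used here, so no counting interval is given. Genes above the floor in at least 0.5 of the libraries entered limma (3.58.1, under R 4.3.3) with a mean-variance trend, all groups of a cell type in 1 fit and Benjamini-Hochberg adjustment at 0.05; letters had no term. The procedure was tested on simulated data. The interaction used a pseudocount of 50. Means are given ± SD. The gene lengths are those of the longest principal transcript. Listed genes are named by the smallest p of their list in a contrast. Some genes that the naming rules select are not reported here. The 10 genes and all lists were chosen with earlier results of these data known. Alternatives were other filters, pseudocounts, no trend, a block for letters, fewer groups and libraries left out.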

Additional observations from a re-analysis of the deposited data

How the results depend on the processing

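None of the 10 genes passed an adjusted p of 0.05 in any of 1476 member tests under the alternatives (lowest adjusted p 0.0951). The settings without the C libraries, and without WT B, KO1 B and KO2 B, were added after the data were seen. Apart from leaving out 1 library, 481 member differences kept their sign and 19, over 13 results, did not, of which the largest as reported was -0.19, for endothelial Cd9 in the knockout mean minus WT. The causes were not tested.

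With a replicate block for the letters, WT minus PBS was 0.073 for endothelial Tsg101 and -0.006 for microglial Cd9, the knockout mean minus WT in endothelial cells was 0.005 for Cd9, -0.035 for Lamp1 and -0.028 for Sdcbp, and all exosome groups minus PBS was -0.009 for microglial Cd9. Without the C libraries the same knockout difference was 0.095, -0.019 and -0.089, all exosome groups minus PBS was -0.016 for endothelial Rab27a and -0.009 for microglial Cd9, and WT minus PBS was -0.011 for microglial Cd63. Without WT B, KO1 B and KO2 B of the endothelial cells, WT minus PBS was 0.045 for Tsg101 and -0.052 for Rab27a, the knockout mean minus WT was 0.123 for Rab27a, and all exosome groups minus PBS was 0.023 for Cd151 and 0.013 for Pdcd6ip. With a pseudocount of 1 the endothelial knockout mean minus WT of Rab27a was 0.28 and the microglial WT minus PBS of Tsg101 0.008.

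Over all genes, the count called was 0 in every fit as reported. In endothelial cells without the filter it was 9 for WT minus PBS, 6 for the knockout mean minus WT, 26 for all exosome groups minus PBS, 3 for KO1 minus KO2 and 15 in the F test. With a pseudocount of 1 it was 3, 16 and, in the F test, 3, and with 50 it was 2, 2 and 2. Without the trend WT minus PBS and the knockout mean minus WT had 1 each, with only the groups compared WT minus PBS had 2, without the C libraries all exosome groups minus PBS had 1, and with the stricter filter KO1 minus KO2 had 1. In microglia WT minus PBS, all exosome groups minus PBS, KO1 minus KO2 and the F test had 1 each without the filter, and all exosome groups minus PBS had 2 with a pseudocount of 1. The interaction had 6 without the filter and 1 with a pseudocount of 1. With the replicate block the counts were 16, 26 and 7 for WT minus PBS, all exosome groups minus PBS and the F test in microglia, 1 for the interaction and 0 in endothelial cells. The letters are not taken as pairs, because the labels do not say what they stand for. Same-letter libraries correlated over 0.1 in 7 of 12 endothelial and 7 of 15 microglial pairs, which does not settle whether letters form blocks. Libraries of different letters did so in 1 of 25 and 0 of 30 pairs. These correlations use deviations from group means. In a group of 2 libraries the deviations mirror each other, so same-letter and different-letter values are not independent. Of the libraries, 9 of 10 and 10 of 11 correlated best with a library of their own letter. With the block, all exosome groups minus PBS was -0.256 for endothelial Cd81 (limma, unadjusted p = 0.00297, adjusted p = 0.318). It was 0.305 for endothelial Cd9 (limma, unadjusted p = 0.01, adjusted p = 0.432) and -0.481 for microglial Rab27a (limma, unadjusted p = 0.022, adjusted p = 0.426). Endothelial Sdcbp, at -0.162, had an unadjusted p of 0.0601 (limma). Fitting only the groups compared gives no other fit for all exosome groups minus PBS, and the interaction was not refitted without the trend or with fewer groups.

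Leaving out 1 library at a time, the counts ran from 0 to 5 for endothelial WT minus PBS, 0 to 17 for the knockout mean minus WT, 0 to 2 for all exosome groups minus PBS and 0 to 8 for KO1 minus KO2, from 0 to 1 for the microglial knockout mean minus WT and for all exosome groups minus PBS, and from 0 to 13 for the interaction. The highest came, in that order, without WT B, WT B, KO1 C, KO2 C, WT A, KO2 B and, for the interaction, endothelial WT B; without microglial PBS B the interaction had 9. Leaving out microglial PBS A changed the sign of 7 member differences, PBS B of 4 and endothelial WT B of 4. Where a group kept 1 library, that library is assumed to vary like the other groups. Member differences that changed sign did so within the following ranges. In endothelial cells, WT minus PBS ran from -0.075 to 0.045 for Tsg101 and -0.052 to 0.185 for Rab27a. In endothelial cells, the knockout mean minus WT ran from -0.389 to 0.013 for Cd9, -0.069 to 0.074 for Lamp1, -0.057 to 0.073 for Sdcbp and -0.130 to 0.108 for Rab27a. In endothelial cells, all exosome groups minus PBS ran from -0.075 to 0.008 for Cd151 and -0.084 to 0.019 for Pdcd6ip. In endothelial cells, KO1 minus KO2 ran from -0.015 to 0.309 for Tsg101. In microglia, WT minus PBS ran from -0.052 to 0.096 for Cd63, -0.414 to 0.429 for Cd9, -0.332 to 0.129 for Cd82, -0.506 to 0.307 for Tsg101 and -0.006 to 0.433 for Pdcd6ip. In microglia, the knockout mean minus WT ran from -0.033 to 0.090 for Cd63, -0.027 to 0.034 for Cd9, -0.093 to 0.026 for Cd82 and -0.051 to 0.027 for Lamp1. In microglia, all exosome groups minus PBS ran from -0.022 to 0.120 for Cd63, -0.417 to 0.425 for Cd9, -0.352 to 0.109 for Cd82, -0.123 to 0.020 for Cd151, -0.659 to 0.155 for Tsg101 and -0.086 to 0.352 for Pdcd6ip. Several differences kept their sign but moved by over 1.5 times. Among them, the range was -0.558 to -0.238 for microglial Rab27a, -0.127 to -0.021 for microglial Lamp1, -0.324 to -0.004 for microglial Sdcbp and 0.200 to 0.468 for endothelial Cd9, each for all exosome groups minus PBS, 0.109 to 0.253 for endothelial Lamp1 in WT minus PBS, -0.234 to -0.033 for endothelial Cd63 in the knockout mean minus WT and 0.634 to 1.465 for Cd9 in the interaction.

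Groups hold 2 or 3 libraries, recovered microglia counts are approximate below a mean of 54.3, and the dye gate of PBS and the meaning of the letters are unknown.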
